A study of Rattus norvegicus with 5 samples.

Results

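Cytochrome P450 genes of families 1 to 4 were represented by 46 of the 15866 probe sets without array controls, for 44 of 10959 gene symbols. They were taken as all probe sets with an annotated symbol of the form *Cyp*, a digit from 1 to 4 and a letter, and probe sets that carry several such names were included. Family 1 had 3 probe sets, family 2 had 27, family 3 had 4 and family 4 had 12. The signals come from the small intestine of male Wistar rats, aged 6 weeks at the start, that had been fed the AIN-93G powdered diet for 1 month, either at the full recorded intake (control) or at 5, 10, 20 or 30% below it (calorie restriction, CR). All rats were dissected after a 16 h fast. RNA of the 5 rats of each group was pooled and hybridized to 1 Affymetrix rat 230A array, so there are 5 arrays in all, no CR level has a replicate and the spread between rats is not known. The segment of the small intestine is not stated, and the RNA comes from the whole tissue, in which fewer cells of a type and less RNA per cell cannot be told apart.

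Cytochromes P450 are heme enzymes of the endoplasmic reticulum that insert an oxygen atom into their substrates, with electrons passed on by the reductase *Por*. Families 1 to 3 oxidize drugs, plant compounds, pollutants and steroids, and family 4 hydroxylates fatty acids and their signalling derivatives such as leukotrienes. Many of these genes are switched on through receptors for foreign compounds and lipids: family 1 through the aryl hydrocarbon receptor (*Ahr*), subfamily 2b through the constitutive androstane receptor (*Nr1i3*), subfamily 3a through the pregnane X receptor (*Nr1i2*) and subfamily 4a through *Ppara*. In the gut the enzymes sit mainly in the enterocytes of the villi, where they meet compounds from food before these reach the liver.

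The deposited MAS5 signals (intensity, linear scale) had medians between 44.9 and 49 on the 5 arrays, and the arrays correlated with each other at 0.931 to 0.952 on the log2 scale. All 17 enterocyte markers on the array passed the signal filter described below. Of 15 liver markers on the array only *Cps1*, which the gut makes too, passed, and albumin had signals of 5.2 to 12.2 at one probe set and 11.6 to 26 at the other. The control array stood apart in its exocrine pancreas markers: 11 of 12 had their highest signal there, the exception being *Cela1*. The signals of the 12 summed to 396, 330, 311 and 279 at 5, 10, 20 and 30% CR, against 993 in the control pool. Without *Cela1* the sums were 246, 84.0, 104 and 94.4 at the same levels, against 778 in the control pool. These markers were not at 0 on the CR arrays. The trypsinogen *Prss1* had 71.2, 2.4, 24.9 and 18.5 at 5, 10, 20 and 30% CR, against 174 in the control pool. In the mean over the 5 arrays, which the filter uses, 11 of the 12 stayed below it. On the control array alone, *Prss1*, *Cela2a*, *Cpb1*, *Ctrb1*, *Ctrl*, *Pnlip*, *Clps* and *Amy2a3* exceeded the array median of 46.9. Their signals there were 48.2 to 174. *Cel*, *Cpa1* and *Prss2* did not exceed it, with 35.4, 31.7 and 10.5. The 20% CR array stood apart in 2 other ways. For beta-actin, the 3' probe set gave 3.18 times the signal of the 5' one, a ratio that grows as RNA is degraded, against 2.20 to 2.41 on the other arrays, and its summed enterocyte marker signal was 42306, against 31646 in the control pool and 33214, 32602 and 33712 at 5, 10 and 30% CR. The part of these differences in the results below was not tested.

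Most of these P450 genes gave no signal above that of genes foreign to the gut. The detection calls of the authors are not used here, so a probe set was counted as measured when its mean log2 signal reached 5.54 (a signal of 46.5), the median over all probe sets. None of 75 probe sets for 63 genes of retina, lens, testis, pituitary, kidney and other organs reached that level, and the 90th percentile of their signals lay between 17.4 and 23.3 on the 5 arrays. Of the 46 P450 probe sets, 12 passed: *Cyp1b1* in family 1, *Cyp2b1*/*Cyp2b2*, *Cyp2d4*, *Cyp2j3*, *Cyp2j4* and *Cyp2t1* in family 2, *Cyp3a9* and *Cyp3a18* in family 3, and *Cyp4b1*, *Cyp4f1*, *Cyp4f5* and *Cyp4f6* in family 4. All 12 lay above the 90th percentile of the foreign genes on every array. One of them, *Cyp4b1*, had a control signal below the filter (42.6) and passed through its signals in the CR pools. The filter thus favours genes that were higher in CR, and counts over the 12 are a description only. The probe set nearest above the filter was that of *Cyp2t1* (mean log2 signal 5.71).

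**Figure D1:**
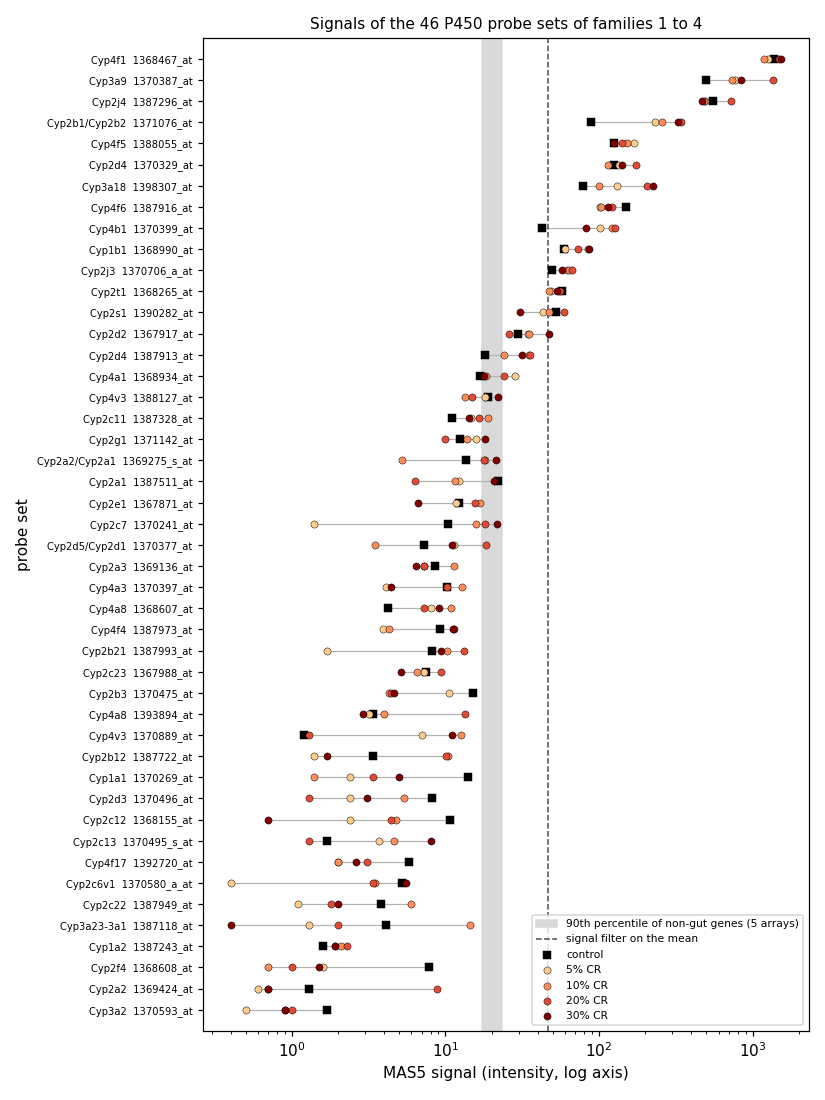
Signals of all 46 P450 probe sets on the 5 arrays (horizontal log axis, MAS5 intensity), ordered by their mean, with black squares for the control pool and circles for the pools at 5, 10, 20 and 30% CR. The 12 probe sets from *Cyp2t1* upward pass the filter at a mean signal of 46.5 (dashed line), and the grey band spans the 90th percentile of 75 probe sets of genes foreign to the gut (17.4 to 23.3).

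The other 34 probe sets lay below the filter, with a median signal of 7.4 over the 5 arrays. *Cyp2s1*, an epithelial P450, came closest, with 52.1 in the control pool and 43, 47.2, 59 and 30.6 at 5, 10, 20 and 30% CR, so it reached the median of its array in the control and 20% CR pools only. It was lowest at 30% CR, and the control lay inside the range of the CR pools. *Cyp2d2* and the second probe set of *Cyp2d4* were above the 90th percentile of the foreign genes on all 5 arrays, with signals of 25.9 to 47.2 and 18.2 to 35.5. *Cyp2a1*, the probe set shared by *Cyp2a2* and *Cyp2a1*, *Cyp2c7*, *Cyp4a1* and the brighter probe set of *Cyp4v3* were so on some arrays, and the remaining 26 on none. Among those 26 are the genes that the rat liver is best known for, *Cyp1a2*, *Cyp2c11*, *Cyp2e1*, *Cyp3a2* and *Cyp3a23-3a1*, and also the classical targets of the aryl hydrocarbon receptor and of *Ppara*, *Cyp1a1* and *Cyp4a3*. *Cyp1a1* had a signal of 14 in the control pool and 2.4, 1.4, 3.4 and 5 at 5, 10, 20 and 30% CR, all inside the range of the foreign genes, so its ratios are not read here. *Cyp2f4*, a lung P450, had 0.7 to 1.6 in the CR pools, against 7.8 in the control pool, and lies in the same range. The rest of the 26 are *Cyp2a2* at its own probe set, *Cyp2a3*, *Cyp2b3*, *Cyp2b12*, *Cyp2b21*, *Cyp2c6v1*, *Cyp2c12*, *Cyp2c13*, *Cyp2c22*, *Cyp2c23*, *Cyp2d3*, *Cyp2d5*/*Cyp2d1*, *Cyp2g1*, both probe sets of *Cyp4a8*, *Cyp4f4*, *Cyp4f17* and the dimmer probe set of *Cyp4v3*. Over the 34 probe sets the mean log2 ratio to the control ranged from -2.78 to 2.32, and the SD over the 4 levels had a median of 0.74, against 0.25 for the 12 that passed.

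Among the 12 measured probe sets, the geometric mean of the CR signals was 1.79 to 3.20 times the control for 4, those of *Cyp2b1*/*Cyp2b2*, *Cyp4b1*, *Cyp3a18* and *Cyp3a9*, 1 from subfamily 2b, 1 from 4b and both from 3a. A log2 ratio to the control of at least 0.5 at all 4 CR levels was seen for 3 of the 12 (*Cyp2b1*/*Cyp2b2*, *Cyp4b1* and *Cyp3a9*), where 0.769% of the 7933 kept probe sets had one upward, and for none downward, where 0.34% had one. The count was 2 with the arrays centred on their medians, where *Cyp3a9* fell short at 10% CR. It was 4 without the 10% CR pool, where *Cyp3a18* (0.35 at 10% CR) came in. Leaving out a pool makes the rule easier to meet. The share over all kept probe sets was not computed for these settings, so their counts are not read as a result. A log2 ratio of at least 1 was reached upward by 2 of 12 at 5% CR (0.366% of all kept probe sets), 2 at 10% (0.454%), 4 at 20% (0.504%) and 2 at 30% (0.744%), and downward by none at any level (0.214%, 0.214%, 0.63% and 0.34%). With 1 array a level these counts have no replicate check, and all ratios share the single control array. The signals at all 4 CR levels were above the control for 6 of 12 (19% of all kept probe sets) and below it for 2 (20.6%). The mean log2 ratio was above 0 for 8 of 12 (49.1% of all) and the slope over the restriction percent for 10 of 12 (47.7%). The median log2 ratio of the 12 was 0.22, 0.31, 0.40 and 0.21 at 5, 10, 20 and 30% CR, while that of all kept probe sets stayed between -0.03 and 0.01. The height at 20% CR was not particular to the 12. There the median was 0.40 for the enterocyte markers and 0.44 for the measured P450 genes of other families. Both lay between -0.29 and 0.06 at the other levels.

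**Figure D2:**
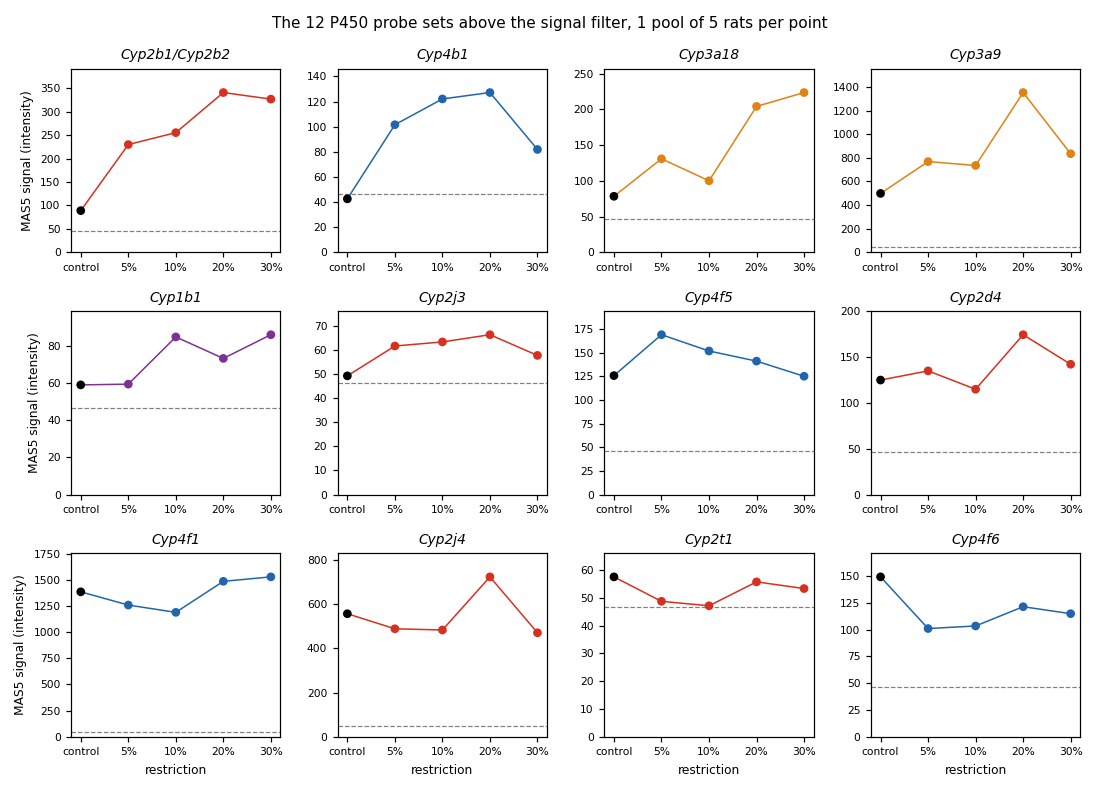
Signals of the 12 P450 probe sets above the filter (vertical axis from 0, MAS5 intensity) in the control pool (black) and the pools at 5, 10, 20 and 30% CR, ordered by their mean log2 ratio to the control. Points are single arrays, each hybridized with RNA of 5 rats. The dashed line is the filter at 46.5, and colours mark the families (purple 1, red 2, orange 3, blue 4). The first 6 panels show every CR pool above the control pool, for *Cyp1b1* by very little at 5% CR (59.6 against 59.2).

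The pools were compared in limma, with the 4 CR pools set against the single control pool and, separately, with a slope over the restriction percent. The spread is then that among pools (3 residual degrees of freedom, moderated over all kept probe sets), the control pool is taken to be as variable as those under CR, and any real difference between CR levels counts as spread in the first comparison. Fitted log2 ratios and slopes below are given ± their standard error. Neither fit called any of the 12 at an adjusted p of 0.05 (0 of 7933 kept probe sets higher and 0 lower in each, 0.0%). At an unadjusted p below 0.05, the comparison with the control had 4 of 12 higher, where 2.71% of all kept probe sets were, and 1 lower, where 2.05% were. The trend had 3 of 12 with a positive slope (1.55% of all) and 0 with a negative one (1.54%).

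*Cyp2b1*/*Cyp2b2*, the phenobarbital-inducible P450s that oxidize barbiturates and many other drugs, share probe set 1371076_at. Their signal was 89 in the control pool and 230, 255, 341 and 327 at 5, 10, 20 and 30% CR. In the 5% CR pool it was 2.58 times the control, all CR pools were above the control, and the 20 and 30% CR pools had the 2 highest signals. The mean over the CR pools was 288 ± 54.0 (SD over the 4 levels), against 89 in the control pool. The geometric mean of the CR signals was 3.20 times the control (log2 ratio 1.68 ± 0.23, standard error, 95% confidence interval 1.17 to 2.18), and only 2 of the 7933 kept probe sets had a larger mean ratio. In limma the adjusted p was 0.0778, over the threshold. Without the 30% CR pool the adjusted p was 0.0316, with a log2 ratio of 1.61, and over all the alternatives run it lay between 0.0316 and 0.424. The slope was 0.52 ± 0.14 (log2 per 10% restriction, adjusted p = 0.998 in limma), and among the CR pools alone, without the control pool, it was 0.22 ± 0.09. Without the 30% CR pool the slope was 0.85 ± 0.18 (adjusted p = 0.402 in limma, in a range of 0.402 to 1 over the alternatives).

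The pair cannot be separated on this array, and the DNA around their start sites shows how alike they are. The windows from RefSeq (assembly GRCr8, 250 bases before to 50 after the annotated gene start, 5′ to 3′ on the gene's strand) are printed because the probe set is annotated to both genes. The share of each gene in the signal is not known. The windows were searched on both strands for AGGTCA and AGTTCA, which receptors such as those above bind in pairs, for GCGTG, the core bound by the aryl hydrocarbon receptor, and for CATAAA, which stands near the start of both genes. All 4 runs were chosen after the sequences had been seen. None of these runs overlaps another in the windows shown, and capitals mark each match.
Cyp2b1, chr1:90645869-90646168 (+ strand): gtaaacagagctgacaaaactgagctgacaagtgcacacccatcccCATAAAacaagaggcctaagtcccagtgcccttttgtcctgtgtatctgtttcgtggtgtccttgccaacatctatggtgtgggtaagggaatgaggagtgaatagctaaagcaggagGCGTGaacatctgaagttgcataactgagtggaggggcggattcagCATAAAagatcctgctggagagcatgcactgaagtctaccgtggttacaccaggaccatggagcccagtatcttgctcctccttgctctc
Cyp2b2, chr1:90722031-90722330 (+ strand): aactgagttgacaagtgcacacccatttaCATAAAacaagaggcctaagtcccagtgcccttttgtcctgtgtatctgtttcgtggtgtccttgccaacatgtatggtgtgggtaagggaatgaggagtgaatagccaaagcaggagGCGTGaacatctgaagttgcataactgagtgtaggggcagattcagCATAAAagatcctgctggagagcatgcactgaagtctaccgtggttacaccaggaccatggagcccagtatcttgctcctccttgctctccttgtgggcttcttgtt
Shifted by 17 bases the windows overlap over 283 bases, of which 275 (97.2%) are identical and 8 differ. Both hold CATAAA at 2 places and GCGTG at 1 place. CATAAA occurs in 12.7% and GCGTG in 29.7% of all 33469 promoter windows of this length, and a match describes the letters only. The phenobarbital-responsive enhancer of these genes in the rat lies farther upstream than this window reaches.

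The remaining genes of the *Cyp2b* group did not share this signal. *Cyp2b3*, *Cyp2b12* and *Cyp2b21* had signals of 4.3 to 15.1, 1.4 to 10.4 and 1.7 to 13.2, below the 90th percentile of the foreign genes on every array.

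Both measured members of subfamily 3a, which hydroxylates steroids such as testosterone and a wide range of drugs, were higher in every CR pool than in the control pool, but in different patterns over the levels. *Cyp3a18* (1398307_at) had 78.5 in the control pool and 131, 100, 204 and 224 at 5, 10, 20 and 30% CR. The 20 and 30% CR pools were the highest and the 10% CR pool was the nearest to the control. Its mean over the CR pools was 165 ± 58.7 (SD over the levels), against 78.5 in the control pool. The geometric mean was 1.99 times the control (log2 ratio 1.00 ± 0.38, interval 0.15 to 1.84, adjusted p = 0.976 in limma). The slope was 0.49 ± 0.10 per 10% restriction (adjusted p = 0.998 in limma), and 0.42 ± 0.12 among the CR pools alone, so it did not rest on the control array.

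*Cyp3a9* (1370387_at) had 499 in the control pool and 768, 736, 1353 and 835 at 5, 10, 20 and 30% CR. The 20% CR pool was far above the others, which lay close together. The mean over the CR pools was 923 ± 290 (SD over the levels), against 499 in the control pool. The geometric mean was 1.79 times the control (log2 ratio 0.84 ± 0.28, interval 0.21 to 1.47, adjusted p = 0.974 in limma). On the 20% CR array the enterocyte markers were higher too, with a median log2 ratio of 0.40, against -0.06, -0.12 and 0.06 at 5, 10 and 30% CR. Without that pool the mean log2 ratio of *Cyp3a9* was 0.64 ± 0.13 (adjusted p = 0.228, in a range of 0.228 to 1 over the alternatives). Its slope was 0.28 ± 0.11, with 0.14 ± 0.13 among the CR pools alone and 0.67 ± 0.10 without the 30% CR pool.

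The start regions of both genes are shown because both were higher at every CR level and because the pregnane X receptor, which governs subfamily 3a, binds pairs of the run AGTTCA. Capitals mark the matches to it, which read as TGAACT where it lies on the opposite strand.
Cyp3a18, chr12:13994062-13994361 (+ strand): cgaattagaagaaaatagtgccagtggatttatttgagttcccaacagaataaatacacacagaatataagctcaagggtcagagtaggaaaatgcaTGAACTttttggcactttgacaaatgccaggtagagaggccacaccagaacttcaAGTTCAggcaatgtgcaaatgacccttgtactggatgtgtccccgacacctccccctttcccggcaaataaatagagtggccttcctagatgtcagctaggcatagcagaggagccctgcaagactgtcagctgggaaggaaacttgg
Cyp3a9, chr12:21960111-21960410 (- strand): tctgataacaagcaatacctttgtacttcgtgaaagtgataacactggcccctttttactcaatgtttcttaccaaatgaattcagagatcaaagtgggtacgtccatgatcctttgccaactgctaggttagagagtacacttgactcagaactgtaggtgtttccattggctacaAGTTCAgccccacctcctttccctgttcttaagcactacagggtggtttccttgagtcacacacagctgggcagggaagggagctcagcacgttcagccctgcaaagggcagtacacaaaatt
*Cyp3a18* held AGTTCA at 2 places, 153 and 98 bases before the annotated start, on opposite strands, and *Cyp3a9* held it at 1 place, 73 bases before it. The 2 matches in *Cyp3a18* do not lie side by side as a pair, and binding was not tested. The run occurred in 14.5% of all promoter windows, in 11 of the 37 matched windows of the 44 P450 genes (29.7%) and in 4 of the 13 windows of measured members, the others being *Cyp2j3* and *Cyp2j4*. The related run AGGTCA was in 16.2% of all windows, in 11 of the 37 and in 0 of the 13. Liver-type members of the subfamily stayed at the bottom of the range, with 0.5 to 1.7 for *Cyp3a2* and 0.4 to 14.4 for *Cyp3a23-3a1*.

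*Cyp4b1* (1370399_at), a lung and gut P450 that hydroxylates medium-chain fatty acids and activates plant furans, had the largest mean ratio of the 4 measured members of family 4. Its signal was 42.6 in the control pool and 102, 122, 127 and 81.9 at 5, 10, 20 and 30% CR. All CR pools were above the control, with the middle levels highest and 30% CR lowest among them. The mean over the CR pools was 108 ± 20.7 (SD over the levels), against 42.6 in the control pool. The geometric mean was 2.50 times the control (log2 ratio 1.32 ± 0.26, interval 0.73 to 1.91, adjusted p = 0.313 in limma). The control signal lay below the filter, and with a constant of 13 added to all signals the log2 ratio was 1.11. The slope was 0.22 ± 0.17 over all pools, -0.13 ± 0.13 among the CR pools alone and 0.68 ± 0.21 without the 30% CR pool, where the difference from the control was smallest. Markers of lung epithelium, another site of this gene, were not measured: 0 of 7 passed the filter, with summed signals of 60.5 to 103 in the CR pools, against 87.9 in the control pool.

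The 4f genes, which hydroxylate leukotriene B4 and arachidonic acid, gave mean ratios on both sides of 0. *Cyp4f6* (1387916_at) was lower in every CR pool, with 149 in the control pool and 101, 104, 122 and 115 at 5, 10, 20 and 30% CR. The geometric mean of its CR signals was 0.736 of the control signal (log2 ratio -0.44 ± 0.19, interval -0.88 to -0.01, adjusted p = 0.988 in limma), with no order over the CR levels. *Cyp4f5* (1388055_at) lay on the other side at low restriction, with 126 in the control pool and 169, 152, 141 and 125 at 5, 10, 20 and 30% CR. Its signal was highest at 5% CR and lower at each further level, ending level with the control, and the mean log2 ratio was 0.21 ± 0.20 (adjusted p = 0.988 in limma).
*Cyp4f1* (1368467_at) had 1388 in the control pool and 1261, 1191, 1488 and 1531 at 5, 10, 20 and 30% CR. The control lay in the middle of the CR pools, and the mean log2 ratio of -0.03 had an interval of -0.40 to 0.34, and changes inside that interval could not be seen with 5 arrays. Fatty acid hydroxylases of subfamily 4a were not measured above the filter: *Cyp4a1* had signals of 16.7 to 28.4, *Cyp4a3* 4.1 to 12.9 and both probe sets of *Cyp4a8* 2.9 to 13.4.

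**Figure D3:**
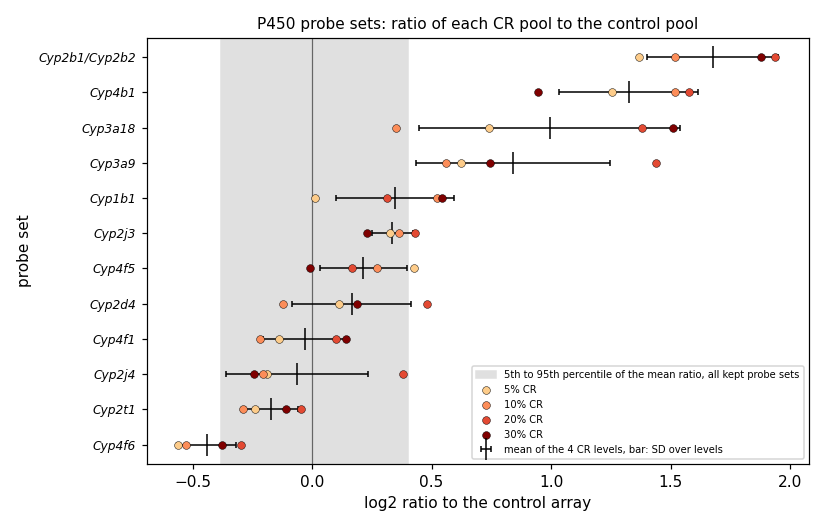
Log2 ratio of each CR pool to the control pool for the 12 measured P450 probe sets, with circles for the 4 CR levels, a vertical tick for their mean and a bar for the SD over levels. The grey band spans the 5th to the 95th percentile of the mean ratio over all 7933 kept probe sets (-0.38 to 0.40). *Cyp2b1*/*Cyp2b2*, *Cyp4b1*, *Cyp3a18* and *Cyp3a9* have means of 1.68, 1.32, 1.00 and 0.84, and *Cyp4f6* one of -0.44.

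The epoxygenases of subfamily 2j, which turn arachidonic acid into vasoactive epoxides, were close to the control. *Cyp2j4* (1387296_at), a form known from the rat small intestine, had 557 in the control pool and 488, 483, 723 and 470 at 5, 10, 20 and 30% CR. Only the 20% CR pool was above the control, and the mean log2 ratio was -0.06 ± 0.22 (interval -0.57 to 0.44, adjusted p = 0.995 in limma). Without that pool it was -0.21 ± 0.12, and without the 5, 10 or 30% CR pool it was -0.02, -0.02 and -0.005. *Cyp2j3* (1370706_a_at) had 49.3 in the control pool and 61.7, 63.4, 66.4 and 57.8 at 5, 10, 20 and 30% CR. All CR pools were above the control by a little, with a mean log2 ratio of 0.34 ± 0.23 (interval -0.17 to 0.85, adjusted p = 0.988 in limma).

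*Cyp2d4*, a member of the debrisoquine hydroxylase subfamily that is also found in rat brain, had 125 in the control pool and 135, 115, 174 and 142 at 5, 10, 20 and 30% CR at its brighter probe set (1370329_at). The control lay inside the range of the CR pools, and the mean log2 ratio was 0.16 ± 0.23 (adjusted p = 0.988 in limma), with 0.06 without the 20% CR pool and 0.26 without the 10% CR pool. Its other probe set (1387913_at), below the filter, had 18.2 in the control pool and 35.2, 24, 35.5 and 31.3 at 5, 10, 20 and 30% CR. Its mean log2 ratio was 0.77, with every CR pool above the control. The 2 probe sets thus differ in the size of the ratio and, at 10% CR, in its direction (-0.12 at the brighter and 0.40 at the other). *Cyp2t1* (1368265_at) had 57.5 in the control pool and 48.7, 47.1, 55.7 and 53.3 at 5, 10, 20 and 30% CR, all below the control by a little (mean log2 ratio -0.17 ± 0.24, adjusted p = 0.988 in limma).

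*Cyp1b1* (1368990_at), which hydroxylates estradiol and polycyclic aromatic hydrocarbons, was the 1 measured member of family 1. It had 59.2 in the control pool and 59.6, 85.1, 73.5 and 86.3 at 5, 10, 20 and 30% CR. The 5% CR pool was level with the control and the other 3 were above it. The mean log2 ratio was 0.35 ± 0.26 (interval -0.23 to 0.93, adjusted p = 0.988 in limma) and the slope 0.17 ± 0.09 (adjusted p = 0.998).

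The receptors that govern these genes gave ratios in both directions. *Nr1i2*, the pregnane X receptor, had 80.9 in the control pool and 84.8, 63.8, 87.3 and 95 at 5, 10, 20 and 30% CR, a mean log2 ratio of 0.02 ± 0.25. *Nr1i3*, *Ahr* and *Ppara* did not reach the filter and had signals of 29.6 to 43.6 for *Nr1i3*, 3.3 to 34.6 over both probe sets of *Ahr*, and 1.8 to 8.4 for *Ppara*. Those 4 genes were named for their roles after their values had been seen. Of the 11 measured genes in a list of 20 such receptors and their partners, with 12 probe sets, 5 stood above the control in the mean and 7 below it, 0 were called by limma (0 and 1 at an unadjusted p below 0.05, higher and lower) and the median was -0.05, against -0.01 over all kept probe sets. The repressor *Nr0b2* had 86.8 in the control pool and 42.2, 55.8, 62.4 and 55.9 at 5, 10, 20 and 30% CR (mean log2 ratio -0.70 ± 0.27, adjusted p = 0.976 in limma). The glucocorticoid receptor *Nr3c1* had 80.9 in the control pool and 131, 101, 100 and 151 at the same levels (0.56 ± 0.26, adjusted p = 0.988 in limma), and its other probe set, below the filter, had 1.1 to 18.1 in the CR pools, against 12.1 in the control pool.

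Electron donors and heme enzymes were mixed as well. *Por*, also named after its values had been seen, had 215 in the control pool and 257, 273, 294 and 187 at 5, 10, 20 and 30% CR at one probe set, and 125 in the control pool and 145, 92, 178 and 114 at the other. Neither set all CR pools on one side of the control. Of 15 probe sets for 12 measured genes of electron transfer and heme synthesis, 9 were positive and 6 negative, 0 were called (0 and 0 at an unadjusted p below 0.05) and the median was 0.04. The heme enzyme *Ppox* had a mean log2 ratio of -0.36 ± 0.27 and *Cyb5b*, a cytochrome b5, -0.31 ± 0.17 at one probe set and -0.04 ± 0.17 at the other.

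Other genes that the same receptors control differed by list. Of 5 measured targets of *Nr1i2* and *Nr1i3* outside the P450 genes, 3 were positive and 2 negative, with a median of 0.00. Among them *Ephx1*, which hydrolyzes epoxides, had 0.62 ± 0.18 and *Gstm1*, a glutathione transferase, -0.56 ± 0.21 (adjusted p = 0.861 and 0.974 in limma). Of 3 measured targets of *Ahr*, 2 were positive and 1 negative. Lipid genes controlled by *Ppara* outside family 4 had 13 positive and 4 negative of 17 probe sets, where 49.1% of all kept probe sets were positive, with a median of 0.11, against -0.01 over all. Of these, 4 were higher and 0 lower at an unadjusted p below 0.05 (2.71% and 2.05% of all) and 0 were called by limma. *Decr1*, of unsaturated fat oxidation, had 267 in the control pool and 440, 399, 403 and 415 at 5, 10, 20 and 30% CR (0.63 ± 0.14, adjusted p = 0.478 in limma), and *Angptl4*, an inhibitor of lipoprotein lipase, had 0.54 ± 0.31 (adjusted p = 0.988 in limma). P450 genes of other families were mostly unmeasured, with 3 of 16 above the filter. *Cyp27a1*, which oxidizes cholesterol side chains, had 163 in the control pool and 202, 194, 268 and 230 at 5, 10, 20 and 30% CR (0.45 ± 0.20), and *Cyp51*, of cholesterol synthesis, had -0.28 ± 0.18 and -0.22 ± 0.24 at its 2 probe sets.

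Cell type markers were set beside the 4 members that stood highest. The enterocyte list had 9 positive and 8 negative mean ratios of 17, with a median of 0.03. Within it *Fabp2*, the intestinal fatty acid-binding protein, had 984 in the control pool and 1918, 1806, 2383 and 1969 at 5, 10, 20 and 30% CR (1.03 ± 0.16, adjusted p = 0.183 in limma) and *Apoa4*, of chylomicrons, had 0.59 ± 0.31. Smooth muscle markers had 2 positive and 11 negative of 13 probe sets (median -0.14), with summed signals of 13582 to 18570 in the CR pools, against 16994 in the control pool. Markers of lymphocytes were positive in 4 of 4 (median 0.31) and those of macrophages and mast cells in 5 of 6 (median 0.29), where 49.1% of all kept probe sets were positive. Neither list had a marker at an unadjusted p below 0.05 in limma. At 20% CR their medians were 0.02 and 0.02, lower than at the other levels. Endothelial markers were 3 positive and 2 negative (median 0.04), while 2 of 2 measured fat markers were positive (median 0.295) and 1 of 1 of blood negative (-0.27). The 2 measured markers of the distal gut differed. *Clca4* had 871 in the control pool and 567, 328, 462 and 400 at 5, 10, 20 and 30% CR (-1.02 ± 0.24, adjusted p = 0.538 in limma). *Nr1h4* was close to the control (-0.04 ± 0.31). Of 11 probe sets for proximal gut, 2 were positive and 9 negative (median -0.24). The part of cell composition in the P450 ratios was not tested.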

How the data were processed

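Small intestine RNA of 5 pools (control, 5, 10, 20 and 30% CR, each of 5 rats) had been hybridized to 1 array each. The deposited values are MAS5 signal intensities, 1 per probe set, which the authors computed with the GeneChip Operating Software and scaled to a common mean (132 on each array without the lowest and highest 2%). The target of that scaling was not found in the labels or the methods. Since mismatch signal is taken off, weak signals give unstable ratios, and a common mean hides any difference in total RNA.

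Groups were taken from the diet labels. Signals were floored at 0.1 and taken to log2, and 57 array controls were left out. Gene names came from the platform annotation: 12783 probe sets have 1 symbol, 312 several and 2771 none, and 0 needed updating through the gene identifiers. Probe sets with a mean log2 signal at or above the median (7933 of 15866) were kept and tested in R 4.3.3 with limma 3.58.1 (linear model with trended empirical Bayes variances, two-sided p, adjusted by Benjamini-Hochberg across every kept probe set, threshold 0.05), as the CR pools against the control and as a slope over the restriction percent. Intervals are 95% intervals from the moderated fit. The number of arrays limits the precision. The fits were tested on simulated data first. Every member above the filter was named, below it each that reached the median of its array at least once, and up to 2 genes of each list, with the exceptions stated. The members, the lists and the motifs were chosen with earlier results of these data known. As alternatives, the fits were repeated after quantile normalization, after centring on medians, with 13 added to each signal, without the filter and with one at quantile 0.75, with eBayes untrended or robust, on the rank of the restriction, with another size of ratio, and leaving out each pool in turn. Promoter windows are from RefSeq on GRCr8, where 37 of 44 symbols had one.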

Additional observations from a re-analysis of the deposited data

Results flagged for a closer look

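Of the 12 measured P450 probe sets, 1 had a pool far from the others of its kind. *Cyp2j4* (1387296_at) was high at 20% CR, with a signal of 723 against 488, 483 and 470 at 5, 10 and 30% CR, and the gap to the next pool was 0.913 of the whole range of the 4 CR pools on the log2 scale. The 4 pools are levels of restriction and no replicates, and about 1 in 20 groups is singled out this way by chance. The beta-actin 3' to 5' ratio (3.18) and the summed enterocyte marker signal (42306) were also highest on that array, and their part was not tested.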

How the results depend on the processing

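No paired analysis was possible because each pool came from different rats on a single diet. The median of all probe sets lay within 0.063 (log2) of the control on each CR array, above it at 10% CR (0.063) and below it at 20% CR (-0.063), and quantile normalization and median centring changed the direction of no measured P450. Each pool left out in turn gave 0 to 3 probe sets called higher against the control, and 0 to 1 of them P450. The 1 was *Cyp2b1*/*Cyp2b2* without the 30% CR pool. Without the filter, all 46 probe sets enter, and 4 were higher and 7 lower by 0.5 at all levels. Those higher by 1 numbered 4, 7, 8 and 6 at 5, 10, 20 and 30% CR, and those lower by 1 numbered 15, 8, 8 and 9. A positive mean was seen for 21 of the 46, against 7739 of all 15866. The P450 probe sets added are weak signals. With the stricter filter, which keeps 4 P450 probe sets, 1, 1, 2 and 1 were higher by 1. Of those 4, 2 had a positive mean, against 1904 of all 3967. At a size of 0.5 in place of 1, 4, 4 and 5 were higher at 5, 10 and 30% CR, and 1 and 1 lower at 5 and 10% CR. For the counts by size in these settings the share over all probe sets was not computed, so they are not read as a result. Leaving out pools turned values near 0: the mean ratio of *Cyp4f1* ranged from -0.086 to 0.035, and the slopes of *Cyp2t1* from -0.009 to 0.076 (-0.003 with the rank of the level), *Cyp2j4* from -0.060 to 0.215, *Cyp2j3* from -0.031 to 0.186, *Cyp4f6* from -0.09 to 0.09 and *Cyp4f5* from -0.162 to 0.028. The slope of *Cyp4b1*, 0.22 over all pools and so not near 0, ranged from -0.13 to 0.68. It was negative only without the control pool. The cause was not tested. Of the 272 values of single probe sets under the alternatives, 260 kept their direction and side of the threshold. The direction changed for 11, and 1 passed the threshold. The filter settings and the untrended or robust eBayes left the estimates as they were, so no direction could change there. No measured P450 was called in the main fits, so its side of the threshold could change only through a new call. The count of 260 therefore overstates how stable the values are.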
